A study of Mus musculus with 8 samples.

Results

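The 9 genes described here make serine, convert it or carry it across membranes: Phgdh, Psat1 and Psph of the synthesis pathway, the racemase Srr, the mitochondrial carrier Sfxn1, and the plasma membrane carriers Slc1a4, Slc1a5, Slc38a1 and Slc38a2. They were picked by gene symbol, from a set proposed with earlier results of these data known, and all 9 were found among the 35072 genes of the deposited table. RNA was sequenced from mouse CD8 T cells of spleen and lymph nodes, genotype wildtype. The cells of both groups started naive and were activated for 18 h through CD3 and CD28 with IL-12; the control group then received PBS and the formate group 2 mM formate for 24 h, with 4 libraries in each. The labels name no strain, age or sex of the mice and do not tie libraries to separate animals or cultures. Every p-value therefore measures the spread between these libraries, which may be technical. In bulk RNA, a change in the share of cells of a type and a change in RNA per cell cannot be told apart.

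Serine is made from 3-phosphoglycerate, an intermediate of glycolysis: Phgdh oxidises it, Psat1 adds the amino group and Psph removes the phosphate. Serine hydroxymethyltransferases then pass a carbon of serine to folate, and formate is the form in which that one-carbon unit leaves the mitochondrion. Activated T cells use serine-derived one-carbon units for purine synthesis and take up serine as well as making it. The synthesis genes and several amino acid carriers are known targets of ATF4, the transcription factor of the amino acid stress response.

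The library titles carry codes, and neighbouring codes (1 and 2, 7 and 8, 10 and 11, 13 and 14) each hold 1 control and 1 formate library. No label says that neighbours were cultured together. Both kinds of fit are therefore given, the unpaired fit without the pairs and the paired fit with them as a replicate block. The codes were also split into 2 runs, 1 to 8 and 10 to 14, and each run holds 2 pairs. No label names this split, and the widest break in the codes lies elsewhere, between 2 and 7. A run is therefore only a span of codes, not a known batch. Totals ranged from 29361986 to 41393093 counts per library. Summed CD8 T cell markers (Cd3e, Cd3d, Cd3g, Cd8a, Cd8b1 and Trac) were 1570 to 1770 CPM in control and 1580 to 1640 CPM in formate libraries, where CPM is the count scaled to library depth, with TMM factors. B cell markers summed to 14.0 to 22.5 CPM in control and 15.1 to 25.6 CPM in formate, and CD4 T cell markers to 12.8 to 20.5 and 12.8 to 22 CPM. The NK and innate lymphoid list summed to 10.9 to 33.5 CPM in control and 15.5 to 39.4 CPM in formate. Most of this sum was Il1rl1, with means of 20.1 CPM in control and 25.7 in formate. Myeloid markers summed to 3.10 to 5.57 and 4.27 to 6.42 CPM. Stromal markers summed to 17.6 to 24.4 and 17.6 to 23.2 CPM, most of it Pecam1, with means of 18.9 CPM in control and 19.3 in formate. Erythroid and platelet markers summed to 0.101 to 0.364 and 0 to 0.494 CPM. Hba-a1, Pf4 and Cdh5 were at 0 in every library. In the paired fit described below, Trac fell (log2 change -0.17, adjusted p = 0.0179, edgeR), and Ms4a1 of the B cell list (0.62, adjusted p = 0.0275) and Il1rl1 of the innate lymphoid list (0.38, adjusted p = 0.00405) rose. The share of counts from mitochondrially encoded genes was 0.414% to 0.566% in control and 0.560% to 0.906% in formate libraries, and was higher with formate in each of the 4 pairs; the part of these markers and of this share in the results was not tested.

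Promoter sequences of RefSeq (GRCm38.p6) were matched for 7 of the 9 genes. The 250 bases before the start are shown, on the gene's strand, for Phgdh, Psat1, Psph and Slc1a4, the members whose formate changes differed most between the runs of codes. Capitals mark CCAAT read on either strand. All 4 genes are on the minus strand, the windows being chr3:98339970-98340219 for Phgdh, chr19:15925060-15925309 for a start of Psat1, chr5:129787254-129787503 for Psph and chr11:20332714-20332963 for Slc1a4.
Phgdh: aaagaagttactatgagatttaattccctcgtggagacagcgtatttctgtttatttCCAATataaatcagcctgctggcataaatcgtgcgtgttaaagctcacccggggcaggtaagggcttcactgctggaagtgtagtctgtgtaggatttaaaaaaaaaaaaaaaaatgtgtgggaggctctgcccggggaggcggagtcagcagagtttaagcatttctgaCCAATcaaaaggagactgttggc
Psat1: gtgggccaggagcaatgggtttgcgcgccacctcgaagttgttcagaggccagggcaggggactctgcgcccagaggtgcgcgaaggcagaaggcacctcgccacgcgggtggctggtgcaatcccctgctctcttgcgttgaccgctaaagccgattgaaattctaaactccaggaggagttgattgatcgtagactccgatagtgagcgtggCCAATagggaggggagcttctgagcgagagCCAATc
Psph: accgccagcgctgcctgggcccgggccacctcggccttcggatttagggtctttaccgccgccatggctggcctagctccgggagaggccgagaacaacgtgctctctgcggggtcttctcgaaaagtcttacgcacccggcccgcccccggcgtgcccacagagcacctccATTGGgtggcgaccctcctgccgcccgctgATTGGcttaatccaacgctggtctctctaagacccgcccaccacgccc
Slc1a4: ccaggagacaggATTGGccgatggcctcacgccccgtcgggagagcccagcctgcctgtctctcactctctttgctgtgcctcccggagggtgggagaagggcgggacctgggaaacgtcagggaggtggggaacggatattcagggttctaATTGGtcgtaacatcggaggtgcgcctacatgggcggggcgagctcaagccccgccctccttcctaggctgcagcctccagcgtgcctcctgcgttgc
Each of these 4 windows held 2 CCAAT matches, counted back from the start as base -1: -193 to -189 and -23 to -19 in Phgdh, -36 to -32 and -6 to -2 in Psat1, -78 to -74 and -48 to -44 in Psph, and -238 to -234 and -98 to -94 in Slc1a4. The motif was searched after the windows had been read. At least 1 match was found in 37.49% of the 27025 genes with a promoter window of this length, and at least 2 in 11.51%. The windows of Srr, Sfxn1 and Slc38a2 and the other start of Psat1 held none. The ATF4 motif TGATGNAA and the MYC motif CACGTG, read on both strands, were in no member's window. They were in 3.91% and 6.86% of all genes, so 7 genes without a match tell little. Bases after the start were not searched. The NRF2 motif TGACNNNGC, present in 11.52% of genes, had 1 match in Phgdh (-53 to -45) and 1 in Slc38a2 (-27 to -19). None of the matches of one motif overlapped those of another. A match describes letters in these windows only.

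Levels between genes were compared per kilobase of the longest coding transcript. In control cells Phgdh was highest, at 319 ± 47.0 CPM per kilobase (SD, n = 4), followed by Psat1 at 189 ± 45.6, Slc1a5 at 113 ± 14.3, Psph at 66.9 ± 22.2 and Sfxn1 at 65.9 ± 8.66. Below these came Slc38a2 at 41.3 ± 3.75, Slc38a1 at 38.2 ± 8.44, Slc1a4 at 5.69 ± 1.84 and Srr at 1.06 ± 0.0986 CPM per kilobase. Among neighbours in this order, the control libraries of Psph and Sfxn1 overlapped, as did those of Slc38a2 and Slc38a1, while the other neighbours had separate ranges. The order was the same with formate. With the median transcript length instead, Psph stood above Slc1a5, and Slc38a1 above Slc38a2.

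**Figure D1:**
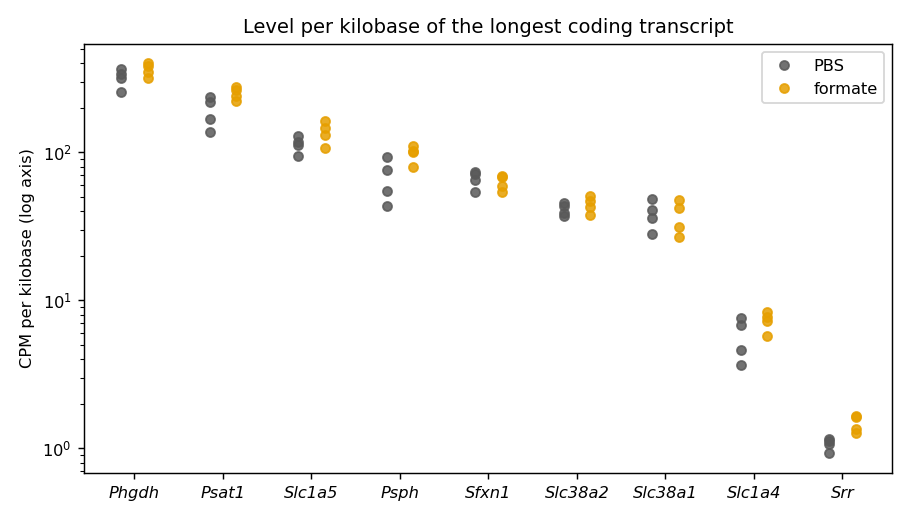
Level of each gene in CPM per kilobase of its longest coding transcript, on a log axis; each point is 1 library, 4 PBS and 4 formate per gene. Phgdh stands at the top and Srr at the bottom in both groups, and in the PBS libraries Psph overlaps Sfxn1 and Slc38a2 overlaps Slc38a1.

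No member was called in the unpaired fit: every adjusted p was 0.998 (edgeR quasi-likelihood test, Benjamini-Hochberg over 13299 genes), and 0.00752% of tested genes, 1 gene, were called. At an unadjusted p under 0.05 the count was 3 members, Psat1, Psph and Srr, and 634 of all genes. In the paired fit 2 of the 9 members, Slc1a5 and Srr, rose with formate and none fell, while 5.35% of tested genes rose and 7.52% fell. The median paired log2 change was 0.27 over the members and -0.00 over all tested genes. All folds below compare formate with PBS.

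The 3 synthesis genes had higher group means with formate, but their paired changes did not pass the test. Phgdh (ENSMUSG00000053398; GRCm38 chr3:98313170-98339990, minus strand), which commits 3-phosphoglycerate to serine, was at 483 CPM in control and 662 in formate for codes 1 and 2, 602 and 755 for codes 7 and 8, 692 and 598 for codes 10 and 11, and 639 and 722 for codes 13 and 14. The groups overlapped, and formate was higher in 3 of 4 pairs, the exception being codes 10 and 11. Means were 604 ± 89.0 CPM in control and 684 ± 69.02 in formate (SD, n = 4), a paired log2 change of 0.19 (SE 0.12, adjusted p = 0.372, edgeR), with a 95% interval from -0.12 to 0.49.

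Psat1 (ENSMUSG00000024640; chr19:15904678-15947337, minus strand), the aminotransferase, was at 357 and 586 CPM for codes 1 and 2, 439 and 691 for codes 7 and 8, 618 and 631 for codes 10 and 11, and 569 and 724 for codes 13 and 14. Formate was higher in each pair, although the lowest formate library lay below the highest control. Means were 496 ± 119 and 658 ± 61.6 CPM, a paired fold of 1.35 and log2 change of 0.44 (SE 0.14, adjusted p = 0.131, edgeR; 95% interval 0.06 to 0.81). A pseudogene, Gm3329, lies on the opposite strand within the gene.

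Psph (ENSMUSG00000029446; chr5:129765558-129787449, minus strand), the phosphatase of the last step, was at 74.8 and 137 CPM for codes 1 and 2, 95.5 and 177 for codes 7 and 8, 162 and 175 for codes 10 and 11, and 132 and 191 for codes 13 and 14. It was higher with formate in each pair, with overlapping groups. Its means were 116 ± 38.5 and 170.0 ± 23.0 CPM, a paired fold of 1.52 and log2 change of 0.60 (SE 0.17, adjusted p = 0.134, edgeR; 95% interval 0.09 to 1.11). Codes 10 and 11 gave the lowest log2 change of each synthesis gene, -0.21 for Phgdh, 0.03 for Psat1 and 0.115 for Psph. Without this pair all 3 synthesis genes were called higher, with log2 changes of 0.32 for Phgdh (adjusted p = 0.00917), 0.57 for Psat1 (adjusted p = 0.00535) and 0.76 for Psph (adjusted p = 0.00226). That fit called 1371 genes in all. Leaving out the lowest pair raises each log2 change, so these calls are not separate support for a rise. Without any other pair none of the 3 was called, and without codes 1 and 2 the log2 change of Phgdh was 0.10 (adjusted p = 0.523). With DESeq2, Psat1 (adjusted p = 0.0129) and Psph (adjusted p = 0.00853) were also called in the paired fit, among 1553 genes called in all.

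**Figure D2:**
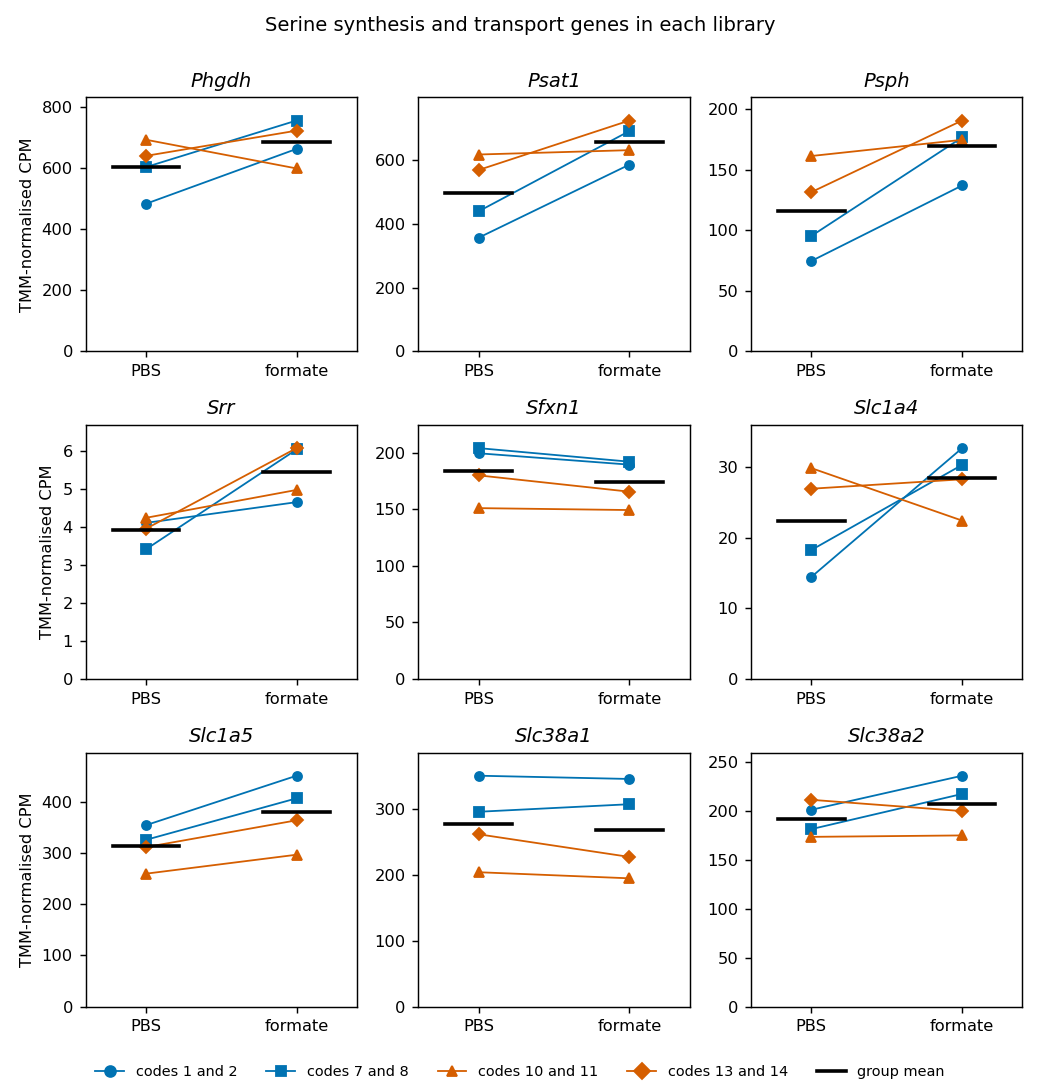
TMM-normalised CPM of the 9 genes in each library, with PBS at left and formate at right of each panel; lines join neighbouring title codes (blue for codes 1 to 8, orange for 10 to 14) and black bars are group means of 4 libraries. Srr alone has formate libraries that all lie above the PBS libraries, and the orange PBS libraries of Psat1, Psph and Slc1a4 lie above the blue ones.

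Srr (ENSMUSG00000001323; chr11:74906359-74925948, minus strand), which converts L-serine to D-serine, was the lowest member, with 101 to 226 counts per library. It was at 4.11 and 4.65 CPM for codes 1 and 2, 3.41 and 6.04 for codes 7 and 8, 4.24 and 4.98 for codes 10 and 11, and 3.95 and 6.08 for codes 13 and 14. Every formate library lay above every control library, which held for 2.44% of tested genes in this direction and for 1.85% in the other. Srr rose from 3.93 ± 0.36 to 5.44 ± 0.73 CPM, a paired fold of 1.38 and log2 change of 0.46 (SE 0.14, adjusted p = 0.0359, edgeR; 95% interval 0.17 to 0.75). The call was lost without codes 1 and 2 (adjusted p = 0.0680), 7 and 8 (0.169) or 13 and 14 (0.170), and with an offset for GC content (0.0507). Srr overlaps Tsr1 and Smg6 on the opposite strand, and its counts were not whole, so reads were divided with other genes. The strand setting of the counting is not known here. Both overlapping genes fell in the paired fit, Tsr1 from 185 ± 64.0 to 165 ± 55.9 CPM (log2 change -0.15, adjusted p = 0.0463) and Smg6 from 35.98 to 30.1 CPM (log2 change -0.26, adjusted p = 0.0101). The counts of Phgdh and Psph were likewise not whole. Phgdh-ps1, a pseudogene of Phgdh, held at most 1 count per library, and Psph overlaps Cct6a on the opposite strand.

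Sfxn1 (ENSMUSG00000021474; chr13:54071869-54108342, plus strand), the carrier of serine into mitochondria, was at 199 and 189 CPM for codes 1 and 2, 204 and 192 for codes 7 and 8, 151 and 149 for codes 10 and 11, and 179.9 and 165 for codes 13 and 14. Formate was lower in each of the 4 pairs, by a margin smaller than the gap between the runs of codes. The paired log2 change was -0.07 (SE 0.04, adjusted p = 0.270, edgeR), with an interval from -0.17 to 0.02.

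Of the plasma membrane carriers, Slc1a5 (ENSMUSG00000001918; chr7:16781340-16798274, plus strand), which exchanges glutamine, serine and other neutral amino acids, rose. It was at 354 and 450.3 CPM for codes 1 and 2, 325 and 406 for codes 7 and 8, 259 and 296 for codes 10 and 11, and 311 and 363 for codes 13 and 14. The pairs differed in level, but formate was higher within each, by a log2 change of 0.19 to 0.35. Means were 312 ± 39.6 and 379 ± 65.6 CPM, a paired fold of 1.21 and log2 change of 0.27 (SE 0.05, adjusted p = 0.00316, edgeR; 95% interval 0.17 to 0.37). The call was kept under each alternative run for the paired fit, with log2 changes from 0.25 to 0.31.

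Slc1a4 (ENSMUSG00000020142; chr11:20302180-20332713, minus strand), a related exchanger of alanine, serine and cysteine, varied most between pairs among the members. It was at 14.4 and 32.6 CPM for codes 1 and 2, 18.2 and 30.3 for codes 7 and 8, 29.8 and 22.4 for codes 10 and 11, and 26.9 and 28.2 for codes 13 and 14. Thus the change went from 1.17 on the log2 scale in codes 1 and 2 to -0.41 in codes 10 and 11. The paired log2 change was 0.38 (SE 0.34, adjusted p = 0.565, edgeR), with an interval from -0.67 to 1.44.

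Slc38a1 and Slc38a2 are sodium-coupled carriers of glutamine, alanine and serine, neighbouring each other on chromosome 15 (ENSMUSG00000023169, chr15:96571418-96642913, and ENSMUSG00000022462, chr15:96687392-96699730, both minus strand). Slc38a1 was at 350.2 and 345 CPM for codes 1 and 2, 295.5 and 307 for codes 7 and 8, 204 and 195 for codes 10 and 11, and 261 and 227 for codes 13 and 14. Only codes 7 and 8 were higher with formate; the paired log2 change was -0.06 (SE 0.05, adjusted p = 0.458, edgeR; 95% interval -0.16 to 0.04). Slc38a2 was at 202 and 236 CPM for codes 1 and 2, 182 and 218 for codes 7 and 8, 174 and 175 for codes 10 and 11, and 212 and 200.2 for codes 13 and 14. It was higher with formate in 3 of 4 pairs, with a paired log2 change of 0.11 (SE 0.06, adjusted p = 0.235, edgeR; 95% interval -0.01 to 0.22).

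**Figure D3:**
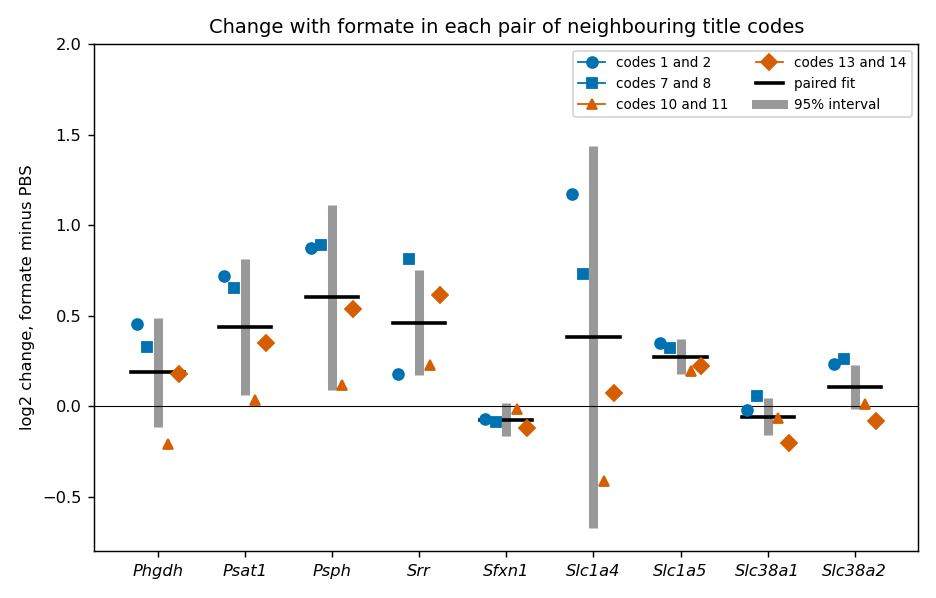
Log2 change (formate minus PBS) of each gene in each pair of neighbouring title codes; black lines are the paired fit over 4 pairs and grey bars its 95% intervals. The blue markers (codes 1 to 8) lie above the orange ones (codes 10 to 14) for Phgdh, Psat1, Psph, Slc1a4, Slc1a5, Slc38a1 and Slc38a2, and not for Srr or Sfxn1.

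Across the 9 genes, 4 were higher with formate in 4 of 4 pairs (Psat1, Psph, Srr and Slc1a5), 3 in 3 of 4 pairs, and 1, Sfxn1, was lower in 4 of 4. For 7 members both pairs of codes 1 to 8 gave a larger log2 change than both pairs of codes 10 to 14, as did 22.2% of all tested genes. The change was lowest in codes 10 and 11 for 5 members. For this count and the counts of pairs, the shares over all tested genes were not taken.

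Within codes 1 to 8, 4 members were called higher with formate and none lower, where 0.391% of tested genes were called higher and 0.0752% lower. This fit takes its residual spread from both runs, each of which holds 2 pairs. Slc1a4 rose 1.94-fold (log2 change 0.96, SE 0.14, adjusted p = 0.0195, edgeR), Psph 1.84-fold (0.88, SE 0.09, adjusted p = 0.00216), Psat1 1.61-fold (0.69, SE 0.08, adjusted p = 0.00165) and Slc1a5 1.26-fold (0.34, SE 0.06, adjusted p = 0.0232). Phgdh, at 1.31-fold (adjusted p = 0.0859), and Srr, at 1.41-fold (adjusted p = 0.281), did not pass; Phgdh was called with scaling by library size alone (adjusted p = 0.0363).

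Within codes 10 to 14 no member was called at an adjusted p under 0.05, where 1.86% of tested genes were called higher and 3.17% lower. The folds were 0.891 for Slc1a4, 1.25 for Psph (adjusted p = 0.0609), 1.14 for Psat1, 1.16 for Slc1a5 (adjusted p = 0.0545), 0.988 for Phgdh and 1.35 for Srr. With scaling by library size alone, Psph (adjusted p = 0.0304) and Slc1a5 (adjusted p = 0.0306) were called there.

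The difference of the formate change between the runs, tested as an interaction, was called for no member; 0.0677% of tested genes were called with a larger change in codes 1 to 8 and 0% with a smaller one. At an unadjusted p under 0.05 the count was 5 members and 673 genes. The log2 difference (codes 1 to 8 minus 10 to 14) was 1.12 for Slc1a4 (SE 0.19, adjusted p = 0.104), 0.56 for Psph (SE 0.12, adjusted p = 0.318), 0.50 for Psat1 (SE 0.11, adjusted p = 0.199), 0.41 for Phgdh (SE 0.12, adjusted p = 0.641) and 0.28 for Slc38a2 (SE 0.08, adjusted p = 0.616). Srr (0.06) and Sfxn1 (-0.01) differed least. Without the filter on low counts the differences of Slc1a4, Psat1, Psph and Phgdh were called, with adjusted p values of 1.38e-05, 0.000693, 0.00174 and 0.0468. In that setting 72 genes were called in all, against 9 with the filter. The log2 difference itself hardly moved (1.11 for Slc1a4), so these calls rest on the estimate of spread.

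The gap between the runs of codes, by its size on the log2 scale, was larger in control than in formate libraries for 6 members. This count was not tested, and its share over all genes was not taken. With its sign, the difference between the 2 gaps is the same contrast as the interaction above, which was called for no member. For Sfxn1 (-0.29 and -0.28, codes 10 to 14 minus 1 to 8) and Srr (0.12 and 0.05) the gaps in control and formate were close, and the other 4 are given here. Control means of Psph were 85.1 CPM in codes 1 to 8 and 147 in codes 10 to 14, against 157 and 183 CPM with formate. For Psat1 they were 398 and 593 CPM in control, against 639 and 678 with formate. Slc1a4 stood at 16.3 and 28.4 CPM in control, and at 31.5 and 25.3 with formate. Phgdh stood at 543 and 666 CPM in control, and at 708 and 660 with formate. The highest control library of Psph exceeded the lowest 2.16 times, against 1.39 times among formate libraries. The same ratios were 1.73 and 1.24 for Psat1, 2.07 and 1.46 for Slc1a4, 1.43 and 1.26 for Phgdh, and 1.35 and 1.29 for Sfxn1. For the remaining members the formate ratio was the larger one: 1.36 and 1.52 for Slc1a5, 1.72 and 1.77 for Slc38a1, 1.22 and 1.35 for Slc38a2, and 1.243 and 1.305 for Srr. Slc1a5, Slc38a1 and Sfxn1 had the opposite order between the runs, with higher control means in codes 1 to 8 (339.5 against 285 CPM for Slc1a5, 323 against 233 for Slc38a1, 202 against 165 for Sfxn1), and kept that order with formate.

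Genes around the members were counted from 8 pathway lists of 91 genes. In the list of glycolysis genes before and after 3-phosphoglycerate, 5 of 6 genes fell in the paired fit, in which 7.52% of tested genes fell. They were Gapdh (log2 change -0.28, adjusted p = 0.00501), Eno1 (-0.28, adjusted p = 0.00539), Pkm (-0.27, adjusted p = 0.00686), Pgam1 (-0.17, adjusted p = 0.0277) and Bpgm (-0.26, adjusted p = 0.0280). Pgk1 was at -0.05 (adjusted p = 0.637). These glycolytic genes have processed pseudogenes with which reads can be shared. The median of the list was -0.27, against -0.00 over all tested genes.

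Genes that use serine did not pass the test. All 4 tested of 7 genes of folate transfer, transsulfuration and breakdown, and all 10 tested of 12 genes of protein and lipid use, stayed uncalled. Shmt1, the cytosolic hydroxymethyltransferase, was at 194 ± 66.5 CPM in control and 188 ± 55.5 in formate (log2 change -0.02, adjusted p = 0.787). Shmt2, its mitochondrial counterpart, was at 561 ± 29.1 and 585 ± 87.6 CPM (log2 change 0.05, adjusted p = 0.683), with pair changes of 0.25 and 0.21 in codes 1 to 8 and of -0.14 and -0.12 in codes 10 to 14. Of 9 genes of glycine cleavage and transport 1 fell and none rose, against 7.52% and 5.35% of tested genes: Gcat, which breaks down threonine-derived 2-amino-3-ketobutyrate to glycine, had a log2 change of -0.32 (adjusted p = 0.0114). None of the 4 other sideroflexins was called, with a median of -0.00.

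Among 15 tested of 22 other neutral amino acid carriers 1 rose and 1 fell, shares near the 5.35% and 7.52% of all tested genes. Slc38a6 rose from 417 ± 72.8 to 477 ± 71.0 CPM (log2 change 0.20, adjusted p = 0.0100), and Slc38a10 fell from 148 ± 23.4 to 132 ± 22.4 CPM (-0.17, adjusted p = 0.0218). Slc7a5, the large neutral amino acid carrier, was at 542 ± 21.6 and 568 ± 105 CPM (0.05, adjusted p = 0.798). Its partner chain Slc3a2 was at 309 ± 29.7 and 338 ± 41.8 CPM (0.13, adjusted p = 0.635), and was called higher within codes 1 to 8 (0.39, adjusted p = 0.0247).

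In the ATF4 axis list, which holds regulators and targets of the amino acid stress response, 1 of 22 genes rose, 1 fell and 20 did not pass in the paired fit, shares near the 5.35% and 7.52% of all tested genes. Atf3, a stress-induced transcription factor, rose from 33.98 ± 2.87 to 45.5 ± 2.03 CPM (log2 change 0.42, adjusted p = 0.00200), and Eif2ak1, a kinase upstream of ATF4, fell (-0.23, adjusted p = 0.00650). Atf4 was at 477 ± 83.2 and 516 ± 40.4 CPM (0.13, adjusted p = 0.608), with pair changes of 0.49 and 0.22 in codes 1 to 8 and of -0.23 and 0.02 in codes 10 to 14. Within codes 1 to 8, 8 genes of the list were called higher and none lower, and within codes 10 to 14, 2 were called higher. These counts stand beside 0.391% of tested genes called higher within codes 1 to 8 and 1.86% within codes 10 to 14. The list's median log2 change was 0.33 in codes 1 to 8 and -0.06 in codes 10 to 14, against 0.01 and -0.02 over all tested genes and 0.39 and -0.02 over the 9 members. The interaction was called for Slc7a11, the cystine carrier (log2 difference 2.68, adjusted p = 0.00125), and Aldh18a1, of proline synthesis (0.54, adjusted p = 0.0363), both named after their values were seen. The glycine carrier Slc6a9, also chosen after its values were seen, rose within both runs, by 2.12 on the log2 scale in codes 1 to 8 and 0.46 in codes 10 to 14, and the difference was called (adjusted p = 0.000999), while its change over all 4 pairs did not pass (adjusted p = 0.228).

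**Figure D4:**
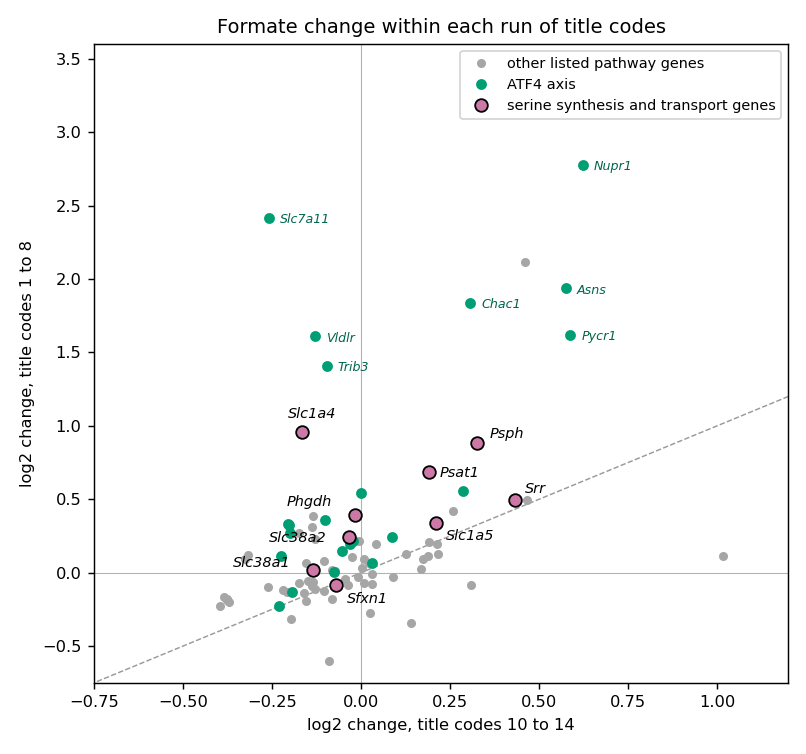
Log2 change with formate within codes 10 to 14 (x axis) and within codes 1 to 8 (y axis) for the 9 genes (pink), the ATF4 axis (green) and the other pathway genes (grey); the dashed line marks equal change. Slc1a4, Psph, Psat1 and Phgdh lie above the line, while Srr and Sfxn1 lie on or near it. Green genes were labelled only where their change in codes 1 to 8 was large, so labelled ones lie above the line by that choice. Of the unlabelled green genes some lie above the line and others near it, such as Ddit3 and Eif2ak1.

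Of 9 other regulators of serine synthesis, 1 rose and 3 fell, where 5.35% of tested genes rose and 7.52% fell. Max, the partner of MYC, had a log2 change of -0.17 (adjusted p = 0.0171), Ehmt2, a histone methyltransferase, -0.18 (adjusted p = 0.0256), and Trp53 -0.15 (adjusted p = 0.0348), while Mdm2, which degrades p53, was at 0.15 (adjusted p = 0.0372). Myc and Nfe2l2, which encodes NRF2, did not pass, at -0.06 and -0.10.

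The genes most alike in profile to 3 members were found by Pearson correlation of log2 CPM over the 8 libraries, after the mean of each run of codes was subtracted, among about 9163 genes for each. For Phgdh these were Gars1 (r = 0.962), Dld (0.961) and Taf13 (0.953). For Srr they were Pet100 (0.932), Rexo5 (0.930) and Zfp655 (0.924), and for Slc1a5 Dclk2 (0.986), Smarcad1 (0.986) and Cd69 (0.970). The 8 points share libraries and the treatment contrast, and the values are given as a description. Gars1, the glycyl-tRNA synthetase, had pair changes of 0.40 and 0.27 in codes 1 to 8 and of -0.27 and 0.04 in codes 10 to 14, beside 0.46, 0.33, -0.21 and 0.17 for Phgdh. Cd69, an early activation marker, rose with formate in the paired fit (79.97 ± 11.5 to 95.2 ± 17.5 CPM, log2 change 0.25, adjusted p = 0.00643).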

How the data were processed

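Per the labels' protocols, polyA RNA was made into libraries with a stranded kit. The submitters' processing notes name kallisto, Trimmomatic and MultiQC, and as builds mm10 and GRCm38, with no strand setting. Values are estimated counts per gene, as deposited by the authors, neither normalised nor pooled; 54.5% of non-zero values were not whole (tolerance 0.001), and values were rounded before testing. Groups follow the label for treatment; replicate numbers follow accession order and only name libraries. Libraries of a group differed beyond sampling noise (smallest chi-square per degree of freedom 22.2).

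All 35072 genes entered edgeR 4.0.16 in R 4.3.3 (TMM, filterByExpr, robust quasi-likelihood test, Benjamini-Hochberg over the 13299 genes kept, called at adjusted p under 0.05). The main fit of the design has no pairs; the paired fit and the interaction were designed beside it, and the within-run changes were added after seeing the data. The paired fit uses neighbouring title codes as a replicate block; deviations from the group means correlated at 0.653, 0.369, 0.656 and 0.370 in the pairs of codes 1, 7, 10 and 13, over the bound of 0.1, and up to 0.373 between non-neighbours of a run. The interaction and within-run changes come from 1 fit with a term for the run. Alternatives were DESeq2 1.42.0, other scalings, no low-count filter, GC offsets and leaving out libraries or pairs. Coordinates and lengths come from GENCODE M21 (GRCm38).

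The genes and lists were chosen with earlier results of these data known. Named are all 9 members, up to 4 genes per pathway list called in the paired fit (smallest p first), Shmt1, Shmt2, Slc7a5, Slc3a2 and Atf4, and the 3 genes most correlated with Phgdh, Srr and Slc1a5 among genes of at least 5 CPM. Bpgm, Pgk1, Myc, Nfe2l2, Slc6a9, Slc7a11, Aldh18a1, Tsr1, Smg6, Phgdh-ps1 and the called markers were named outside this rule, after their values were seen. Cct6a and Gm3329 were named from the annotation alone, and no values were taken for them. Fits were tested on simulated data.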

Additional observations from a re-analysis of the deposited data

How the results depend on the processing

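The unpaired fit called 1 gene, and 12 with DESeq2, 0 to 1 when 1 library was left out, and 0 in codes 1 to 8 or codes 10 to 14 alone; with the replicate block of neighbouring codes it called 1711 genes and 2 members. Leaving out 1 pair gave 337 to 1371 genes and 1 to 5 members, with 337 genes without codes 1 and 2, 722 without 7 and 8, and 502 without 13 and 14; 5 members were called without codes 10 and 11, and 1 without any other pair. Members called in the paired fit numbered 6 without the low-count filter (Phgdh, Psat1, Psph and Slc1a4 added), where 2277 genes were called. With GC offsets 1 member and 1790 genes were called. Without the filter the interaction called 72 genes and 4 members. Within codes 1 to 8, 62 genes were called, against 102 by library size, 490 without the filter and 113 with GC offsets; the members called were 4, against 5 by library size (Phgdh added, adjusted p = 0.0363) and 6 without the filter (Phgdh, 0.000306, and Slc38a2, 0.0289, added). Within codes 10 to 14, 668 genes were called, against 1311 without the filter, and the members called were 2 by library size, 2 without the filter and 1 with GC offsets (Slc1a5). The within-run alternatives and the GC offsets of the interaction were chosen after seeing the data.

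Some directions changed. The unpaired log2 change of Slc38a1 (-0.05) ran from -0.20 to 0.081 when 1 library was left out (0.081 without control 3, 0.07 without formate 1, 0.013 without formate 2) and was 0.01 in codes 1 to 8 alone; in codes 10 to 14 alone Slc1a4 was at -0.15, against 0.34 over all libraries, and Slc38a2 at -0.024, against 0.11. Within codes 1 to 8 Slc38a1 was at -0.008 with RLE factors and -0.045 with GC offsets. Within codes 10 to 14 Phgdh was at 0.03 by library size and 0.014 with GC offsets, and Slc38a2 at 0.013 by library size. The cause was not tested. Of 89 member values under alternatives of the paired fit, 76 kept direction and call, 4 lost the call, 9 gained it and none reversed. DESeq2 gave Srr no adjusted p in the paired fit. Intervals cover the spread between libraries only, and counting noise matters mainly for Srr.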
